A study of Bos taurus with 16 samples.

Results

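The genes described here are the transcription factor ATF4, the stress factor DDIT3 that works with it, and 8 genes known as its targets in human or mouse cells: ASNS, PSAT1, PHGDH, TRIB3, CHAC1, SESN2, MTHFD2 and VLDLR. They were chosen by symbol in the deposited RPKM table (reads scaled to the length of the gene and to the reads of the library). Each symbol had 1 row, so 10 of the 27233 genes of the table are described. The tissue was the whole corpus luteum of Bos taurus, the gland that secretes progesterone in the ovary after ovulation. All 16 cattle had been bred naturally and then inseminated, and were found to be pregnant. They form groups of 4 by the day after breeding on which the gland was taken: day 14, day 17, day 20 and day 23. No group of animals that were not pregnant is analysed here, so day of pregnancy cannot be told apart from age of the gland. Breed and age of the animals are not in the labels.

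Cells translate ATF4 mRNA more when kinases that sense amino acid shortage, unfolded protein, heme lack or viral RNA phosphorylate the initiation factor eIF2 alpha. The ATF4 protein then switches on genes that make and import amino acids, charge tRNAs and limit growth, and, when stress lasts, genes that favour cell death. Because much of this control acts on translation, the level of ATF4 mRNA does not give the amount of ATF4 protein. The corpus luteum secretes steroid and peptide hormones at a high rate, and survives into pregnancy when the embryo signals its presence.

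Libraries held 28.7 to 44.6 M reads assigned to the genes of the table, as recovered from the RPKM values. The samples had the profile of luteal tissue: the 7 markers of steroidogenic cells found out of 8 summed to an RPKM of 15700 to 22700 per library. Markers of other cells were also present, and some moved with day. The 6 endothelial markers summed to 262 to 347 on day 14, 265 to 382 on day 17, 271 to 287 on day 20 and 218 to 240 on day 23. The 5 markers of macrophages and monocytes summed to 90.8 to 129 on day 14, 66.7 to 189 on day 17, 170 to 237 on day 20 and 88.2 to 151 on day 23. The 3 markers of natural killer cells summed to 1.28 to 4.48 on day 14 and 4.73 to 7.93 on day 17, without overlap, and to 2.84 to 10.5 on day 20 and 3.76 to 5.51 on day 23. The 3 markers of red blood cells found out of 4 summed to 1 to 22.1 on day 17 and to at most 1.14 on the other days. On day 17 this was mostly HBB, which reached 21.8 RPKM, while HBA and ALAS2 reached at most 0.0523 and 0.236 in any library. The part of these cells in the differences between days given below was not tested. In whole tissue, fewer cells of a type and less RNA per cell cannot be told apart.

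All 10 genes passed the filter on low values, which asked for 4 or more libraries with an RPKM of 1 or more. CHAC1 passed with 4 libraries, 3 of them from day 20, so its entry into the test depended on the day on which it was high. In limma's moderated F test over the 4 days, 0 of the 10 genes passed an adjusted p of 0.05 (Benjamini-Hochberg over 13361 genes). The background was 0.00% of all genes tested. At an unadjusted p under 0.05 there were 5 of the 10, ATF4, DDIT3, PSAT1, PHGDH and CHAC1, where 11.7% of all genes, 1561 in number, reached it. Limma's voom on the reads recovered from the table also gave 0 genes past the adjusted threshold, and 1539 unadjusted. The 10 genes were picked with earlier results of these data known, so the larger share is not independent evidence. Differences below are therefore given as levels with their errors, and none of them passed.

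**Figure D1:**
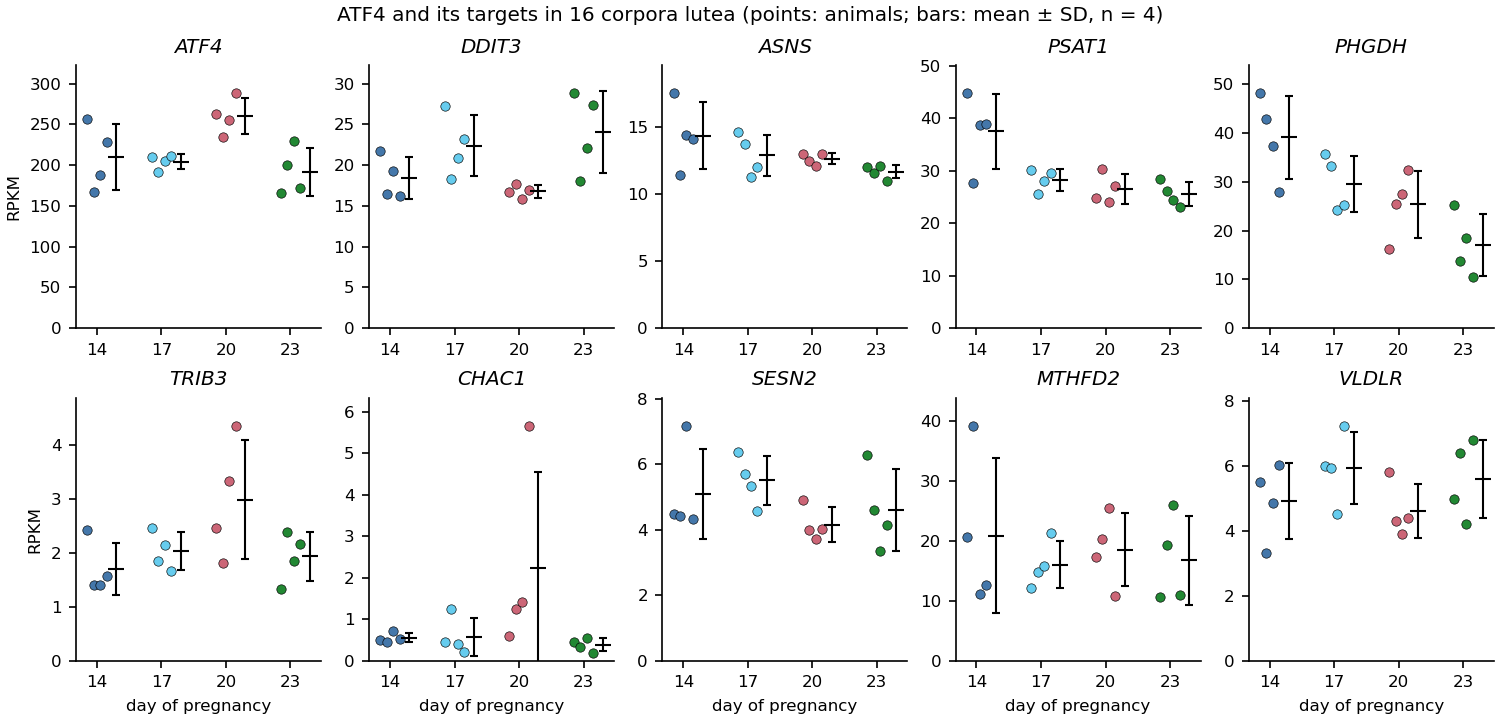
RPKM (linear axes from 0) of the 10 genes in each animal by day of pregnancy. Points are animals, and the black mark and bar beside them are the mean and SD of 4 animals (for CHAC1 on day 20 the bar runs below 0 and is cut there). PHGDH stands lower with each later day, ATF4 highest and DDIT3 lowest on day 20, and MTHFD2 spreads widely within days.

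ATF4 mRNA was abundant and had its highest mean on day 20. Its RPKM was 257, 167, 188 and 229 on day 14, and 210, 192, 205 and 211 on day 17. On day 20 it was 263, 235, 256 and 288, and on day 23 it was 166, 200, 230 and 172. The 4 animals of day 20 lay above the 4 of day 17 and above the 4 of day 23, and overlapped with day 14. Means were 210 ± 40.5, 204 ± 8.55, 260 ± 21.6 and 192 ± 29.4 on the 4 days in order (SD, n = 4). The means of days 14, 17 and 23 differed by less than the SD of day 14. The log2 fold change was 0.35 ± 0.13 from day 17 to day 20 (adjusted p = 0.49 in limma), 0.32 ± 0.13 from day 14 to day 20 (0.51) and -0.45 ± 0.13 from day 20 to day 23 (0.54). The macrophage and monocyte markers also had their highest mean on day 20, above days 14 and 23 without overlap and overlapping with day 17, and their part in the values of ATF4 was not tested.

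DDIT3 encodes CHOP, a dimer partner of C/EBP factors that accumulates in prolonged stress of the endoplasmic reticulum. The order of its means over the days was the reverse of that of ATF4, though the ATF4 means of days 14, 17 and 23 lay close together. RPKM was 21.7, 16.5, 19.3 and 16.2 on day 14, and 27.2, 18.3, 20.9 and 23.2 on day 17. It was 16.7, 17.7, 15.8 and 16.9 on day 20 and 28.8, 18.0, 22.1 and 27.4 on day 23. Day 20 had the lowest mean, 16.8 ± 0.758, and its 4 animals lay below the 4 of day 17 and below the 4 of day 23. Day 23 had the highest, 24.1 ± 4.95, next to 22.4 ± 3.78 on day 17, and those 2 days overlapped. Its log2 fold change was -0.38 ± 0.14 from day 17 to day 20 (adjusted p = 0.49 in limma), 0.47 ± 0.14 from day 20 to day 23 (0.55) and 0.36 ± 0.14 from day 14 to day 23 (0.31).

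Groups without overlap were found in 3 of the 6 comparisons. From day 17 to day 20 they were 2 of 10, ATF4 and DDIT3, where 4.56% of all genes tested had none. From day 20 to day 23 they were 3 of 10, the same pair and CHAC1, against 4.45%. From day 14 to day 23 it was 1 of 10, PHGDH, against 6.96%, and there was none in the other 3 comparisons (3.27% of all genes for day 17 against day 14, 5.21% for day 20 against day 14 and 6.50% for day 23 against day 17). CHAC1 entered the test mainly through day 20, so its count from day 20 to day 23 is not independent of the filter. Its closest animals there were at 0.594 RPKM on day 20 and 0.560 on day 23.

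PHGDH, the enzyme that draws 3-phosphoglycerate from glycolysis into serine, had the widest difference between days 14 and 23 among the 10 genes. Its RPKM was 48.1, 42.8, 37.4 and 28.0 on day 14 and 35.6, 33.2, 24.3 and 25.2 on day 17. It was 16.2, 25.4, 27.4 and 32.5 on day 20 and 25.3, 13.8, 18.5 and 10.5 on day 23. Each later day had a lower mean, from 39.1 ± 8.55 through 29.6 ± 5.69 and 25.4 ± 6.81 to 17.0 ± 6.45, and neighbouring days overlapped. The 4 animals of day 23 lay below the 4 of day 14. On the log2 scale the difference was -1.19 ± 0.25 from day 14 to day 23 (adjusted p = 0.093 in limma, where the smallest of any gene was 0.055). It was -0.62 ± 0.25 from day 14 to day 20 (0.53), -0.81 ± 0.25 from day 17 to day 23 (0.21) and -0.58 ± 0.25 from day 20 to day 23 (0.67). Leaving out each library in turn kept the difference between days 14 and 23 from -1.4 to -1.0, while that between days 20 and 23 was -0.38 without replicate 4 of day 23. The endothelial markers were lower on day 23 too, as given above, and their part in this difference was not tested.

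PSAT1, the aminotransferase of the next step toward serine, had its highest mean on day 14 and close means on the 3 later days. RPKM was 44.7, 27.7, 38.7 and 38.8 on day 14, where replicate 2 stood below the other animals. It was 30.2, 25.5, 28.0 and 29.5 on day 17, 24.7, 30.3, 24.1 and 27.0 on day 20, and 28.4, 26.2, 24.4 and 23.1 on day 23. Replicate 2 of day 14 lay within the range of each later day, and the other 3 animals of day 14 lay above all 12 later ones. The mean was 37.5 ± 7.07 on day 14 and 28.3 ± 2.05, 26.5 ± 2.83 and 25.5 ± 2.32 on the later days, whose ranges overlapped. Against day 14 the log2 fold change was -0.38 ± 0.12 on day 17 (adjusted p = 0.61 in limma), -0.47 ± 0.12 on day 20 (0.21) and -0.52 ± 0.12 on day 23 (0.11).

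The remaining enzyme of the serine route, PSPH, which removes the phosphate, is not among the 10 genes and was low. Its RPKM was 6.14, 1.93, 5.01 and 1.88 on day 14, 3.71, 3.57, 2.86 and 3.26 on day 17, 2.70, 1.93, 1.62 and 2.89 on day 20, and 1.90, 1.40, 1.84 and 1.15 on day 23. Day 23 lay below day 17 in 4 of 4 animals and overlapped with day 14 (log2 fold change from day 14 to day 23 -0.77, adjusted p = 0.21 in limma). Between days 17 and 23, 6.50% of all genes had no overlap. SHMT2, the mitochondrial enzyme that turns serine into glycine, had 29.7, 28.6, 28.2 and 23.1 on day 14 and 24.1, 20.3, 23.1 and 19.0 on day 23 (-0.33 on the log2 scale, limma's adjusted p = 0.15). PSPH and SHMT2 were named because their p over the days was among the 3 smallest of their list.

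**Figure D2:**
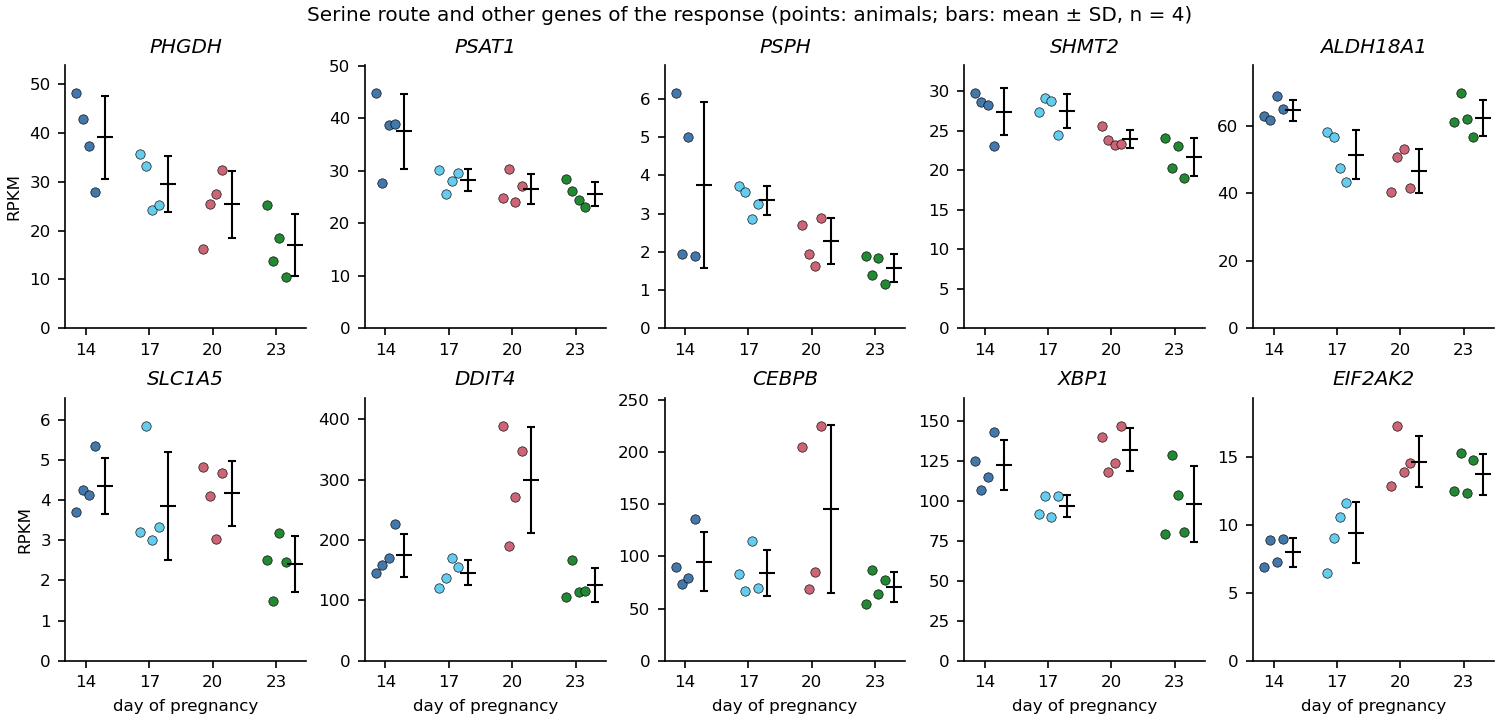
RPKM (linear axes from 0) by day of pregnancy of the serine enzymes PHGDH, PSAT1, PSPH and SHMT2 and of 6 other genes of the response. Points are animals, and the mark and bar are the mean and SD of 4. The 4 serine genes shown have their lowest mean on day 23, and DDIT4 its highest on day 20. PSPH, SHMT2 and the 6 other genes were picked by a small p over the days.

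ASNS, which makes asparagine and is the usual marker of the amino acid response, varied little. RPKM was 17.5, 11.4, 14.4 and 14.1 on day 14, 14.6, 13.7, 11.3 and 12.0 on day 17, 13.0, 12.5, 12.1 and 13.0 on day 20, and 12.0, 11.6, 12.1 and 11 on day 23. Replicate 1 of day 14 was the highest of the 16, and every pair of days overlapped. The log2 fold change from day 14 to day 23 was -0.26 ± 0.10 (means 14.4 ± 2.48 and 11.7 ± 0.513, adjusted p = 0.31 in limma). It was -0.17 without replicate 1 of day 14 and -0.36 without replicate 2.

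MTHFD2, the folate enzyme of mitochondria that supplies formate for nucleotide synthesis, spread more between animals of the same day than between the means of the days. RPKM was 20.6, 39.2, 11.2 and 12.6 on day 14, 12.1, 14.9, 15.9 and 21.4 on day 17, 17.3, 20.4, 25.5 and 10.9 on day 20, and 10.6, 19.4, 26.0 and 11 on day 23. The highest library was 3.71 times the lowest, and every day held animals near 11 or 12 RPKM and others near or above 20. Its pooled SD within days was 0.57 on the log2(RPKM + 1) scale, where the median of all genes tested was 0.18. Day accounted for 3.85% of its variance, against a median of 22.4% over all genes and 62.0% for PHGDH (F test adjusted p = 0.96 in limma). Part of such a share arises without any effect of day, because 4 means are fitted to 16 animals. These shares were not corrected for that. The log2 fold change from day 14 to day 23 was -0.23 ± 0.36 and becomes 0.12 without replicate 2 of day 14 and -0.46 without replicate 3 of day 23, so that it has no settled direction.

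TRIB3, a pseudokinase that binds AKT and feeds back on ATF4, was low. RPKM was 2.42, 1.40, 1.41 and 1.57 on day 14, 2.47, 1.86, 2.15 and 1.67 on day 17, 2.47, 1.82, 3.33 and 4.36 on day 20, and 1.33, 2.39, 1.86 and 2.17 on day 23. Replicates 3 and 4 of day 20 were the 2 highest of all animals, while replicate 2 of that day lay among the others. Its log2 fold change was 0.54 ± 0.19 from day 14 to day 20 (means 1.70 ± 0.489 and 2.99 ± 1.10, adjusted p = 0.40 in limma) and -0.42 ± 0.19 from day 20 to day 23 (0.69). The second value is -0.26 without replicate 4 of day 20.

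CHAC1, which breaks down glutathione and is among the most responsive targets of ATF4 and CHOP in human cells, was the lowest of the 10 genes except in single animals. RPKM was 0.503, 0.464, 0.709 and 0.528 on day 14 and 0.462, 1.24, 0.408 and 0.203 on day 17. It was 0.594, 1.25, 1.43 and 5.66 on day 20 and 0.448, 0.335, 0.560 and 0.195 on day 23. Replicate 4 of day 20 rested on 307 reads, the lowest 2 libraries on 12 each. Day 20 lay above day 23 in 4 of 4 animals, and overlapped with days 14 and 17. The mean of day 20 was 2.23 ± 2.31 RPKM and 1.09 without replicate 4, against 0.551 ± 0.109 on day 14. On the log2 scale day 20 differed by 0.83 ± 0.32 from day 14 (adjusted p = 0.49 in limma) and by 0.85 ± 0.32 from day 17 (0.50), and day 23 by -1.0 ± 0.32 from day 20 (0.59). At this level the added RPKM of 1 shrinks the differences: with 0.1 in its place they were 1.39, 1.54 and -1.87. The macrophage markers given above were also highest on day 20, and their part in the values of CHAC1 and TRIB3 was not tested.

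SESN2, a leucine sensor that restrains the growth kinase complex mTORC1, and VLDLR, a lipoprotein receptor that ATF4 induces in mouse and human cells under stress, were both at low levels and had no day apart from the others. SESN2 ranged from 4.32 to 7.17 RPKM on day 14, 4.59 to 6.39 on day 17, 3.71 to 4.92 on day 20 and 3.34 to 6.30 on day 23. VLDLR ranged from 3.31 to 6.02, 4.53 to 7.23, 3.90 to 5.81 and 4.21 to 6.79 on those days. For both, the widest difference was between days 17 and 20: -0.33 ± 0.16 for SESN2 (adjusted p = 0.64 in limma) and -0.30 ± 0.17 for VLDLR (0.70).

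**Figure D3:**
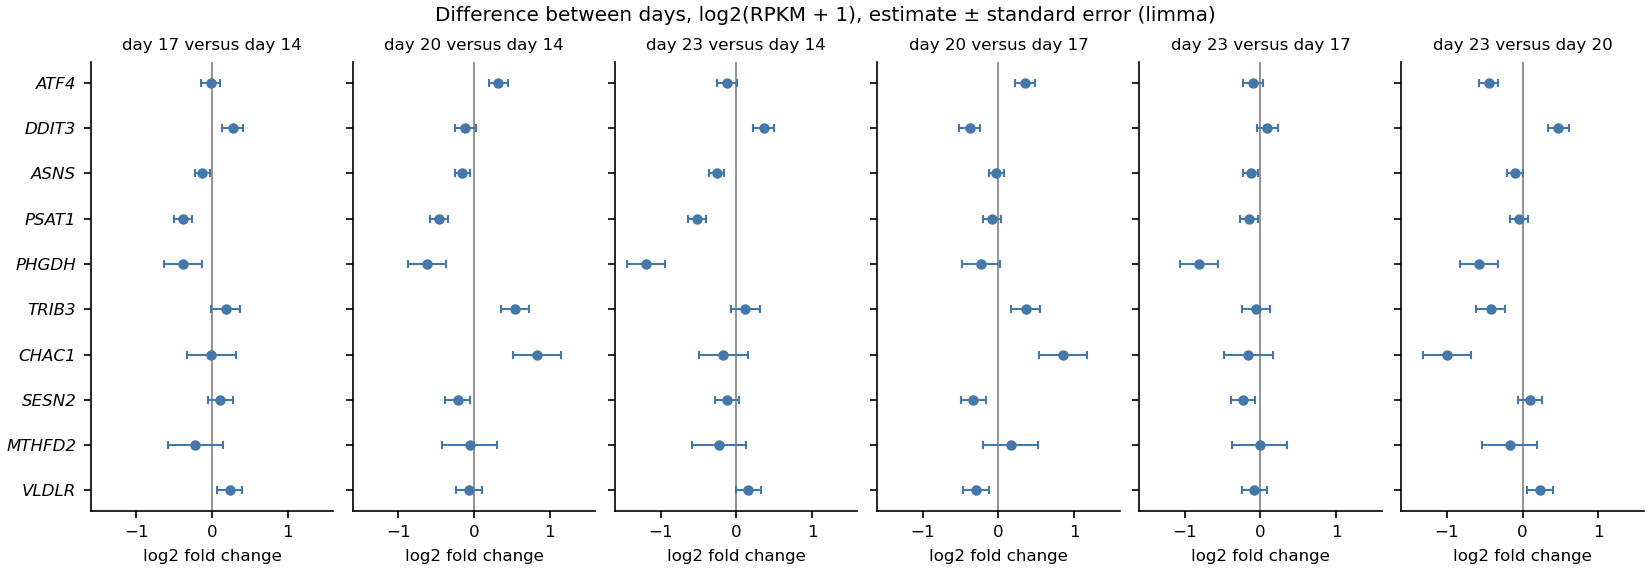
Log2 fold changes (log2(RPKM + 1), later day minus earlier day, horizontal axis) of the 10 genes in the 6 comparisons of days. Points are limma estimates and bars standard errors. Between days 20 and 23, ATF4, TRIB3 and CHAC1 lie below 0 and DDIT3 above it, and the largest estimate is that of PHGDH from day 14 to day 23, -1.19.

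Taken by comparison, the 10 genes did not move as a block. From day 14 to day 20, 3 had positive and 7 negative fold changes with a median of -0.09 (all genes tested -0.02), and 5 reached an unadjusted p under 0.05, against 8.11% of all genes. Between days 14 and 23 there were 3 positive and 7 negative with a median of -0.15 (all genes -0.03), and 4 reached it, against 12.6%. From day 20 to day 23 there were 3 positive and 7 negative with a median of -0.14 (all genes -0.02), and 5 reached it, against 7.00%. From day 17 to day 23 there were 1 positive and 9 negative with a median of -0.12 (all genes -0.04), and 1 reached it, against 11.7%. From day 17 to day 20 there were 4 positive and 6 negative, and 3 reached it, against 8.17%. Between days 14 and 17 there were 4 positive and 6 negative, and 1 reached it, against 7.57%. Of all genes tested, 53.5% had a positive fold change from day 14 to day 17, 45.2% to day 20 and 43.3% to day 23. That share was 42.9% from day 17 to day 20, 40% from day 17 to day 23 and 44.9% from day 20 to day 23. CHAC1, which entered the test mainly through day 20, is counted in the comparisons that involve day 20. In each of the 6 comparisons 0 of the 10 passed the adjusted threshold, as did 0.00% of all genes, while 935 to 1679 genes had an unadjusted p under 0.05. Limma's voom gave 0 genes as well, except 1 for day 23 against day 14.

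The authors' deposited table also gives p-values, raw and adjusted, under headers that name no comparison. In the authors' deposited table the adjusted p was 0.004 for CHAC1, 0.013 for PSAT1 and 0.016 for PHGDH. In the authors' deposited table it was 0.051 for DDIT3, 0.18 for ATF4, 0.21 for TRIB3 and 0.60 to 0.93 for ASNS, VLDLR, SESN2 and MTHFD2. The share of all genes under 0.05 in that column was not counted, so these values have no background beside them. For CHAC1, the mean of day 20 fell from 2.23 to 1.09 RPKM without replicate 4. The same 5 genes, CHAC1, PSAT1, PHGDH, DDIT3 and ATF4, have the smallest p-values in the authors' deposited table and in the F test over the 4 days. Both come from the same data, so this overlap is not independent evidence.

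Upstream of ATF4, the kinases and phosphatases of eIF2 alpha gave no call. Of 12 genes found out of 12, 12 were tested and 0 passed in any of the 6 comparisons of days in limma. EIF2AK4, the sensor of uncharged tRNA, had mean RPKM of 14.8, 14.4, 13.6 and 13.7 on the 4 days in order, and EIF2AK1, the heme-regulated kinase, 26.1, 26.5, 26.9 and 27.0. Those with the smallest p over the days were EIF2AK2, PPP1R15A and EIF2AK3. EIF2AK2, known as PKR, which responds to double-stranded RNA and is itself induced by interferon, had 6.90, 8.88, 7.27 and 8.97 on day 14 and 12.9, 17.3, 13.9 and 14.6 on day 20, without overlap (adjusted p = 0.14 in limma). On day 23 it was at 12.5, 15.3, 12.4 and 14.8, also above day 14 without overlap (0.088). No overlap was found for 5.21% of all genes between days 14 and 20 and for 6.96% between days 14 and 23. PPP1R15A, the stress-induced phosphatase subunit that ATF4 and CHOP switch on, was at 13.0, 12.2, 16.9 and 32.6 on day 14 and at 17.0, 17.5, 17.3 and 31.4 on day 20, with replicate 4 the highest on both days (adjusted p = 0.91). EIF2AK3, the kinase of the endoplasmic reticulum known as PERK, had means of 14.5, 11.7, 12.7 and 11.7.

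Among factors related to ATF4 and its secreted targets, 10 of 10 genes were found and 8 tested, and 0 passed in any comparison. CEBPB, a dimer partner of ATF4, was at 205, 68.4, 85.0 and 225 RPKM on day 20 and at 54.1, 86.7, 63.9 and 77.7 on day 23, so that 2 animals of day 20 stood apart from the other 2 (-0.87 on the log2 scale, limma's adjusted p = 0.63). JDP2, a repressor of the same family, had means of 8.64, 11.7, 10.5 and 8.96 over the days. STC2, a secreted glycoprotein, had 1.70, 1.32, 1.64 and 6.39 on day 14 and 0.988, 0.640, 0.894 and 0.820 on day 20. FGF21 and GDF15, circulating hormones induced by this pathway in other tissues, did not reach the filter, with means of at most 0.188 and 0.249 RPKM on any day.

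Of 18 enzymes of serine, glycine, proline and one-carbon metabolism, 17 were found and 15 tested, and 0 passed. Between days 14 and 23, 4 had positive and 11 negative fold changes with a median of -0.06, where all genes had -0.03. The share of all genes with a positive one was 43.3%. ALDH18A1, the first enzyme of proline synthesis, had the smallest p over the days. It was at 62.7, 61.7, 68.6 and 64.9 RPKM on day 14, 58.2, 56.6, 47.4 and 43.4 on day 17, 40.4, 50.8, 53.2 and 41.6 on day 20 and 61.1, 69.5, 61.9 and 56.7 on day 23. Day 20 lay below days 14 and 23 in 4 of 4 animals (-0.47 on the log2 scale from day 14 to day 20 with adjusted p = 0.16 in limma, and 0.42 from day 20 to day 23 with 0.50). No overlap was found for 5.21% of all genes between days 14 and 20 and for 4.45% between days 20 and 23.

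Of 15 amino acid transporters, 15 were found and 12 tested, and 0 passed. For day 23 against day 14, 3 had positive and 9 negative fold changes with a median of -0.22, where all genes had -0.03. A positive one was found for 43.3% of all genes. SLC1A5, a carrier of glutamine, was at 3.71, 4.24, 4.12 and 5.34 RPKM on day 14 and 2.51, 1.5, 3.19 and 2.46 on day 23, without overlap (-0.66 on the log2 scale, limma's adjusted p = 0.16). It was named for the smallest p of its list over the days, and 6.96% of all genes had no overlap between those days. SLC6A9, a glycine carrier, had means of 3.08, 2.84, 2.83 and 1.91 over the days and SLC7A8, a carrier of neutral amino acids, 8.89, 8.08, 6.84 and 5.41. SLC7A11, the cystine carrier that ATF4 induces in many cultured cells, did not reach the filter, with a mean of at most 0.356 RPKM on any day.

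Of 19 genes for cytosolic aminoacyl-tRNA synthetases and the tRNA exporter XPOT, 19 were found and tested, and 0 passed. From day 14 to day 23, 3 had positive and 16 negative fold changes with a median of -0.09, where all genes had -0.03. Among all genes, 43.3% had a positive one. KARS, the synthetase for lysine, was at 163, 131, 157 and 176 RPKM on day 14 and 122, 106, 133 and 117 on day 23, which overlapped (-0.39 on the log2 scale, limma's adjusted p = 0.12). NARS, for asparagine, had means of 65.1, 61.5, 65.1 and 57.9. WARS, for tryptophan, which interferon also induces, had 69.1, 84.1, 97.8 and 70.4.

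Of 18 brakes on mTORC1, pseudokinases and other stress targets, 16 were found and tested, and 0 passed. DDIT4, which restrains mTORC1 and also responds to glucocorticoids and low oxygen, was at 145, 159, 170 and 226 RPKM on day 14, 121, 138, 170 and 155 on day 17, 389, 190, 271 and 348 on day 20 and 106, 167, 114 and 115 on day 23. Day 20 lay above days 17 and 23 in 4 of 4 animals, the same days as for ATF4 (log2 fold change from day 20 to day 23 -1.22, adjusted p = 0.22 in limma). DDIT4 was named for the smallest p of its list over the days. No overlap was found for 4.56% of all genes between days 17 and 20 and for 4.45% between days 20 and 23. XBP1, a factor of the unfolded protein response, had means of 123, 97.1, 132 and 98.2, and HSPA5, the main chaperone of that response, 239, 241, 249 and 249. CASTOR1, an arginine sensor, had 12.3, 16.7, 14.7 and 16. Of 9 genes of the VLDL receptor family and its ligands, 9 were found and 7 tested, and 0 passed. LRP1 and LRP8, receptors of this family, had means of 52.8 to 62.9 and 3.65 to 5.31 over the days.

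Among the 45 pairs of the 10 genes, 22 had a positive and the others a negative correlation over the 16 animals. After adjustment over the 45 pairs, 2 passed a permutation test with 100000 resamples on log2(RPKM + 1). ATF4 and TRIB3 had Pearson r = 0.71 (p = 0.0014, adjusted p = 0.032) and Spearman rho = 0.67 (permutation p = 0.0057, adjusted p = 0.17). Their r was 0.53 without the 2 animals farthest from the median of either gene, and 0.58 for deviations from the mean of the day (permutation p = 0.022, adjusted p = 0.50). ASNS and PSAT1 had r = 0.77 (permutation p = 8.2e-04, adjusted p = 0.032) and rho = 0.55 (p = 0.03, adjusted p = 0.20). Their r was 0.63 without the 2 animals farthest from the median of ASNS, 0.53 without the 2 farthest from that of PSAT1, and 0.67 within days (permutation p = 0.053, adjusted p = 0.50). Replicate 1 of day 14 was highest in both genes, and without it r was 0.61 and no longer passed (permutation, adjusted p = 0.16). Leaving out single animals in turn, the first relation passed in 7 of 16 cases and the second in 11 of 16, and neither passed within days. ATF4 with PHGDH, PSAT1 and MTHFD2 had r = 0.11, 0.11 and 0.08 (permutation, adjusted p = 0.83 each), and with DDIT3 -0.47 (0.28) and -0.05 within days. Within days ATF4 and PSAT1 had 0.44. ATF4 with CHAC1 had 0.57 (permutation, adjusted p = 0.096) and 0.18 within days, and with ASNS 0.38 (0.41) and 0.58 within days. With SESN2 it had -0.48 (0.28) and with VLDLR -0.09 (0.83).

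**Figure D4:**
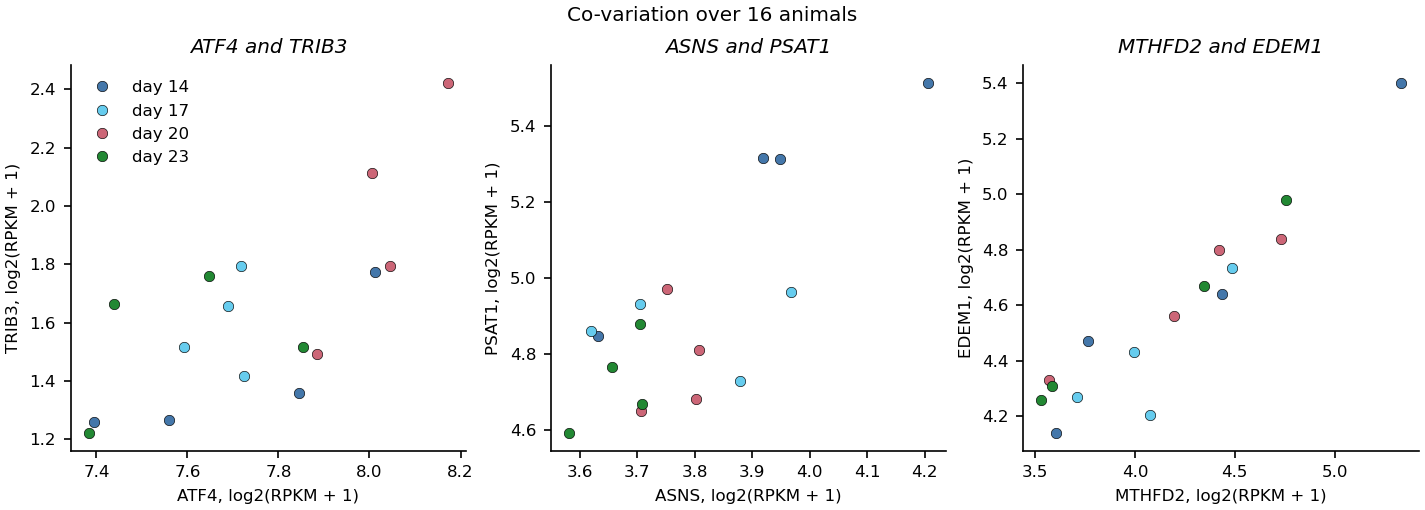
Log2(RPKM + 1) of ATF4 against TRIB3, of ASNS against PSAT1 and of MTHFD2 against EDEM1, 1 point per animal, coloured by day of pregnancy. For ATF4 and TRIB3 and for ASNS and PSAT1 single animals of day 20 and day 14 stand at the upper right, and for MTHFD2 and EDEM1 all 4 days run along 1 line (r = 0.94).

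As a description, the gene with the profile most like the mean of the 10 genes (each centred and scaled) was PSPH, the serine enzyme named above, with r = 0.83 over 16 libraries and 0.79 within days. Among the next were APEX1 (0.79), a gene without symbol (0.78), PRMT1 (0.78), CAPG (0.77), H2AFV (0.77), BTF3 (0.76), RPL10 (0.76) and RPL11 (0.75). For single genes, the closest was PER1, a clock gene, for ATF4 (r = 0.86), ZNF133 for DDIT3 (0.90), TCF3 for ASNS (0.88) and PNPLA4 for PSAT1 (0.81). It was a gene without symbol for PHGDH (0.89), H3F3B for TRIB3 (0.80), IFRD1 for CHAC1 (0.91), CCDC71 for SESN2 (0.88) and ALDH6A1 for VLDLR (0.80). The highest value was that of EDEM1, which helps to clear misfolded protein from the endoplasmic reticulum, with MTHFD2, at r = 0.94 and 0.95 within days. EDEM1 was at 24.0, 41.3, 16.6 and 21.2 RPKM on day 14 and 18.1, 24.4, 30.5 and 18.8 on day 23, with the same animals high and low as for MTHFD2. These points share their libraries, and the best of 13361 genes is high in part by selection.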

How the data were processed

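The authors deposited 1 table of RPKM for 27233 genes in 16 libraries, and, beside them, 2 columns of deposited p-values, raw and adjusted, for a comparison that no header names. Libraries were made with a stranded mRNA kit, per the labels' protocols. HISAT2 2.1.0, featureCounts 1.5.3, bedtools 2.26.0, FastQC, DESeq2 and the build ARS-UCD1.2 are named, per the submitters' processing notes, without settings; no source used here says whether strand was used in counting, so reads of a gene and of an antisense partner may be mixed.

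Values were analysed as log2(RPKM + 1) for the 13361 genes that reached 1 RPKM in 4 or more libraries, in limma 3.58.1 (R 4.3.3; lmFit, eBayes with trend) with 1 model over all libraries, 12 residual degrees of freedom, two-sided tests and Benjamini-Hochberg adjustment over all genes tested. Because RPKM is relative to the library's reads, a gain in abundant genes lowers all others. Reads were recovered from the steps of the RPKM values (100% of genes gave whole reads within 0.001) for depth and for limma's voom. Fits were tested on simulated data. Limma's p-values set differences between days against the spread between these animals within days.

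Genes named are the 10, up to 3 of each list with the smallest p over the days, the 10 most like their mean and the 1 most like each; further genes of the lists (EIF2AK4, EIF2AK1, SLC7A11, FGF21, GDF15, HSPA5) were named after their values were seen. A few of the genes chosen this way are not reported here. The members and lists were chosen with earlier results of these data known. Samples of different days share replicate numbers, and the labels name nothing that pairs them. Alternatives were pseudocounts of 0.1 and 0.5, no trend, no filter, a filter at a mean RPKM of 5, the replicate number as a block, quantile normalization, scaling by median ratios, only the 8 libraries compared, voom, and each library left out.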

Additional observations from a re-analysis of the deposited data

Results flagged for a closer look

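Of 40 groups of 4 animals (10 genes on 4 days), 3 held an animal whose gap to the nearest other was beyond Dixon's critical share of the range of the group, where chance gives about 1 in 20. CHAC1 in replicate 4 of day 20 was at 5.66 RPKM, and the gap was 0.836 of the range. TRIB3 in replicate 1 of day 14 was at 2.42 RPKM, with a gap of 0.835. SESN2 in replicate 3 of day 14 was at 7.17 RPKM, with a gap of 0.942.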

How the results depend on the processing

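In each of the 6 comparisons of days and in the F test, 0 of the 10 genes passed under every alternative in which they were tested. Over all genes the count moved from 0 to 32 for day 20 against day 14 and to 22 for day 23 against day 14 and for the F test without day 17 replicate 3, and to 20 and 13 for these 2 comparisons with only the 8 libraries compared, with none of the 10 among them. The replicate block gave 0 of the 10 as well and 2 genes in all, both for day 23 against day 14. Same-numbered animals of different days had a median correlation of deviations of 0.03, with a range of -0.226 to 0.211. Animals with different numbers had -0.01, with a range of -0.255 to 0.212, so no pairing by number was seen. The log2 fold change of MTHFD2 from day 14 to day 23 ranged from -0.46 to 0.12 with single libraries left out, and 0.12 came without day 14 replicate 2. The other 21 differences with a standard error given above kept their direction throughout. For PHGDH from day 14 to day 23 the adjusted p ranged from 0.073 to 0.26, and for PSAT1 from 0.076 to 0.28. CHAC1 left the test at a mean RPKM of at least 5 and without any of the 4 libraries that carried it over the filter, and under voom its differences were 1.43, 1.6 and -2.0. The 2 correlated pairs became 0 under quantile normalization and 0 for deviations from the mean of the day, and 0 to 2 with single libraries left out, the cause of which was not tested. ATF4 with TRIB3 then had r of 0.61 to 0.77 and passed in 7 of 16 cases, and ASNS with PSAT1 0.61 to 0.82, in 11 of 16. Depth limits CHAC1, which rests on 12 to 307 reads.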

Other observations

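The animals that were high in MTHFD2 were high in further genes, named here after their values were seen. SLC5A6, the carrier of biotin and pantothenate, had r = 0.93 with MTHFD2 over the 16 libraries (0.95 within days) and a mean RPKM of 30.7, and PREX1, an exchange factor for Rac, had 0.89 (0.90 within days) at 19.8. For CHAC1, the genes next after IFRD1 that have a symbol of their own included COQ10B, a protein of coenzyme Q function, with r = 0.87 (0.83 within days). For PHGDH they were NNAT, neuronatin, with 0.86 (0.74 within days), and SETD4 with 0.85 (0.76). These values are descriptions, taken from the 3 closest of 13361 genes.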
